A study of Homo sapiens with 6 samples.

Results

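Cells recognise long double-stranded RNA with a small set of proteins, and the mRNAs of 10 of them were followed in BxPC-3, a cell line derived from a human pancreatic cancer. The 10 genes are a list of symbols grouped by role, drawn up when earlier results of these data were known, and all of them were found among the 26255 gene symbols of the deposited files. The genes were the RIG-I-like receptors DDX58, IFIH1 and DHX58, the endosomal receptor TLR3, the adaptors MAVS and TICAM1, the kinases TBK1 and IKBKE, the translation kinase EIF2AK2, and the RNA-editing enzyme ADAR. All 10 passed the filter on low values and were tested.

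Each of the 3 groups had 2 libraries. Parent cells received no treatment. NC cells were transfected with the negative control that the labels call NC-1, and miR-4711-5p cells with that microRNA. The study compared the cells at 36 h to look for targets of the microRNA. All groups were the same cell line, so a result holds for this line only. The labels do not say that the 2 libraries of a group came from separate cultures, so the p-values measure the spread between these libraries, which may be technical. The parent cells were not said to have received a transfection reagent, so NC against parent cannot tell apart the reagent, the control RNA and the handling.

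RIG-I (encoded by DDX58) and MDA5 (encoded by IFIH1) are cytosolic helicases that bind viral or otherwise unusual RNA duplexes. Both pass the signal to MAVS on mitochondria, while TLR3 senses duplexes in endosomes and signals through TRIF (encoded by TICAM1). Both routes reach the kinases TBK1 and IKKε (encoded by IKBKE), which activate IRF3 and lead to interferon production, and interferon in turn raises the transcription of several of the sensors. PKR (encoded by EIF2AK2) stops translation when it binds duplex RNA, and ADAR edits adenosines in duplexes and thereby limits their recognition.

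The microRNA is shown first because the sites searched in the sensors derive from it. In the RefSeq miRNA table (GRCh38.p14) the mature strand has 23 nt and lies on the minus strand at chr1:59733269-59733291. The capitals mark the seed, bases 2 to 8.
hsa-miR-4711-5p: uGCAUCAGgccagaagacaugag

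Sites for this seed were searched in the annotated 3′ UTRs of the 10 genes (GENCODE v44 lifted to GRCh37, the build of the authors' hg19). A site is CTGATGC (7mer-m8), TGATGCA (7mer-A1) or both together, CTGATGCA (8mer). The 3′ UTRs of DDX58 and EIF2AK2 held such sites and those of the other 8 genes held none. The sites are shown because they are the only ones found, and both of these mRNAs were higher with miR-4711-5p. Each line reads 5′ to 3′ on the gene's strand, and the capitals mark the site.
DDX58 7mer-m8: caaggtttgCTGATGCttcaaagag
EIF2AK2 7mer-m8: agcaggattCTGATGCcattcaagt
EIF2AK2 7mer-A1: aggcttccaTGATGCAtcccatatt

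The DDX58 site lies at chr9:32456036-32456042 and begins at base 1078 of a 3′ UTR of 1820 nt, in 3 of 4 coding transcripts. The EIF2AK2 sites lie at chr2:37328114-37328120 and chr2:37327405-37327411. They begin at bases 6296 and 7005 of a 3′ UTR of 8063 nt, in 7 of 8 coding transcripts. The 2 genes with a site are 20% of the 10, against 18.4% (2060 of 11191) of all tested genes with a matched 3′ UTR. A site found this way is a match of letters and not a measured contact.

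The windows from 250 bases before to 50 bases after each annotated start (RefSeq table, GRCh38.p14) were searched for the core of the interferon-stimulated response element, GAAANNGAAA, on both strands. This element is bound by transcription factors that interferon activates, STAT2 and IRF9 among them. The table matched 9 of the 10 genes. The core was found in the windows of IFIH1, TLR3 and EIF2AK2, against 3.57% of all 35116 windows and 4.38% of the 27305 genes in the table. These 3 windows are shown because they hold the core, whose letters are in capitals. A core on the opposite strand reads as its reverse complement.
IFIH1, core begins 21 bases before the start: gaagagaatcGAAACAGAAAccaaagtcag
EIF2AK2, core begins 6 bases before the start: agtccaagggGAAAACGAAA
TLR3, core begins 4 bases before the start, opposite strand: caagctttacTTTCACTTTC

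The IFIH1 line covers chr2:162318686-162318715, that of EIF2AK2 covers chr2:37156977-37156996, and that of TLR3 covers chr4:186069142-186069161. The cores of EIF2AK2 and TLR3 run across the start, and that of IFIH1 ends before it. The IFIH1 window held 3 matches in all, of which 2 overlapped each other. The windows of DDX58, MAVS, TICAM1, ADAR, TBK1 and IKBKE did not hold the core. A shorter spacing, GAAANGAAA, was chosen after the sequences were seen, and the DDX58 window held it beginning 203 bases before the start (chr9:32526381-32526409), as did 3.12% of all windows.
DDX58, shorter spacing: ggtgcggaggGAAACGAAActagcccgag

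The unit throughout is FPKM, which scales the fragments of a gene to its exonic length and to the total of the library. Comparisons of level between different genes rest on the exon lengths used, and the gene annotation behind these is not given. The read depth is not known from FPKM. Steps between low values gave a relative depth of 0.751 to 1.21 against parent library 1. Replicate libraries correlated at 0.985 to 0.990 across genes on the log2(FPKM + 1) scale, and no 2 libraries held the same values. The summed FPKM was 543074 to 550772 in parent, 515348 to 515688 in NC and 493145 to 499659 under miR-4711-5p. Dividing each library by its sum moved the median log2 fold change of all genes from -0.01 to 0.11 for miR-4711-5p against parent, from 0.00 to 0.05 against NC and from -0.01 to 0.06 for NC against parent. The 12040 genes that averaged 1 FPKM or more were tested with limma on log2(FPKM + 1), which understates the change of low genes, and a call is an adjusted p under 0.05. Epithelial markers were high, with 6 of 6 expressed and a sum of 5195 to 6247 FPKM. Members of that list differed with miR-4711-5p, since CDH1 fell to 0.270 of NC (limma adjusted p = 3.18e-06) and KRT19 to 0.707 (adjusted p = 3.37e-04), while KRT18 rose 1.25-fold (adjusted p = 0.00172) and EPCAM rose 1.18-fold (adjusted p = 0.00424). Their part in the results on the sensors was not tested. The 9 leukocyte markers summed to 2.06 to 2.95 FPKM, with 1 marker (CD14) over 1 FPKM and TYROBP at 0, and the 6 fibroblast markers to 1.31 to 2.47 FPKM. The leukocyte sums with miR-4711-5p, 2.15 and 2.80 FPKM, lay within the range of the controls.

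Against parent cells, 9 of the 10 genes were called higher with miR-4711-5p and none lower, where 43.4% of all tested genes were called, 18.7% higher and 24.7% lower. Against NC, 8 were called higher and MAVS was called lower, where 39.6% of all tested genes were called, 18.4% higher and 21.2% lower. The median log2 fold change of the 10 genes was 0.65 against parent and 0.58 against NC, and that of all tested genes was -0.01 and 0.00. Both comparisons use the same miR-4711-5p libraries. Both libraries with miR-4711-5p lay above all 4 control libraries in 9 of the 10 genes, which held for 23.8% of tested genes. With 2 libraries a group, groups that do not overlap are common. The libraries were apart in 74.2% of tested genes for miR-4711-5p against parent (35% with miR-4711-5p higher), in 72.4% against NC (36.2% higher) and in 65.5% for NC against parent. The 8 genes called higher against both controls compare with 10% of tested genes. MAVS was the gene that did not share the direction.

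**Figure D1:**
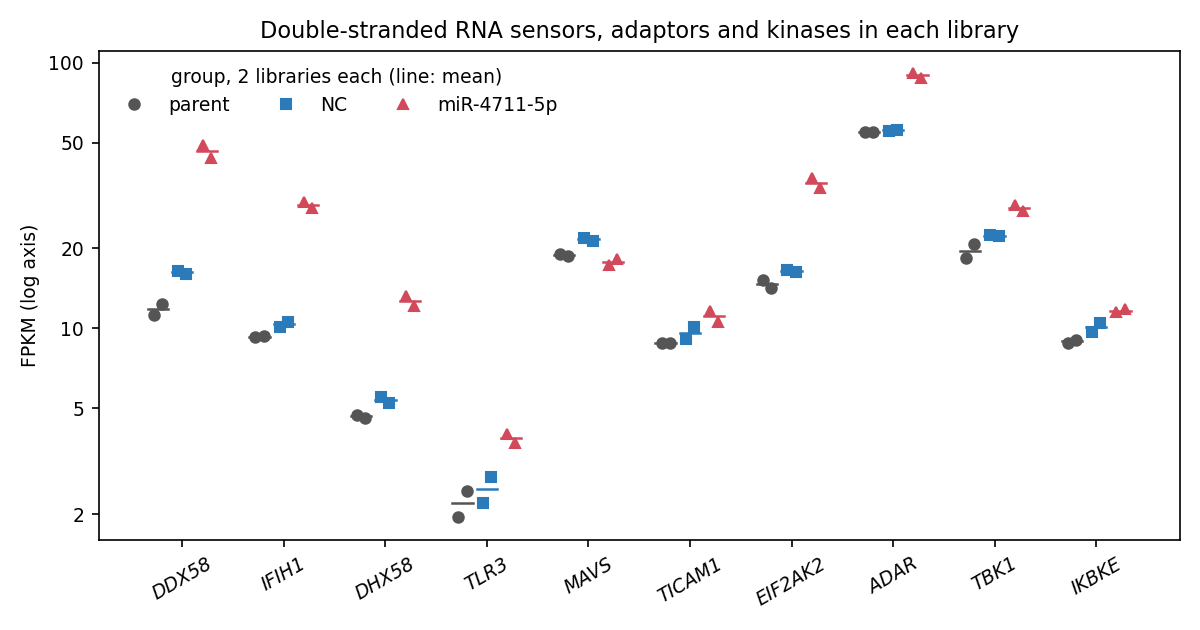
FPKM (log axis) of the 10 genes in each of the 6 libraries, with grey circles for parent, blue squares for NC, red triangles for miR-4711-5p and a line at the mean of the 2 libraries. The red triangles sit above all grey and blue points for 9 genes, by most for DDX58, and below them for MAVS, whose difference from parent changes sign once libraries are divided by their sums.

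The largest differences were those of the RIG-I-like receptors. DDX58 (GRCh37 chr9:32455300-32526206, minus strand), which encodes the sensor of RNA ends RIG-I, was at 11.3 and 12.4 FPKM in parent, 16.4 and 16.1 in NC, and 48.8 and 43.8 under miR-4711-5p. The 3 groups did not overlap, and the miR-4711-5p libraries stood far above the others. The mean rose 3.92-fold over parent (log2 fold change 1.88 ± 0.07 SE, limma adjusted p = 4.87e-06) and 2.85-fold over NC (log2 fold change 1.46, adjusted p = 1.35e-05). Of the 12040 tested genes, DDX58 ranked 52 by log2 fold change against parent. Its annotated 3′ UTR holds the 7mer-m8 site printed, and whether the microRNA acts there was not tested.

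IFIH1 (chr2:163123584-163175194, minus strand) encodes MDA5, the sensor of long duplexes. It was at 9.31 and 9.34 FPKM in parent, 10.1 and 10.6 in NC, and 29.9 and 28.3 under miR-4711-5p. The parent and NC values lay close together and the miR-4711-5p values well apart from both. IFIH1 rose 3.12-fold over parent (log2 fold change 1.54 ± 0.05 SE, limma adjusted p = 4.30e-06) and 2.81-fold over NC (log2 fold change 1.41, adjusted p = 7.26e-06). Its window is the one with 3 matches to the response element core.

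DHX58 (chr17:40253422-40264732, minus strand) encodes LGP2, which has no signalling domain of its own and tunes the other receptors. It was at 4.73 and 4.62 FPKM in parent, 5.50 and 5.23 in NC, and 13.3 and 12.1 under miR-4711-5p. Again the miR-4711-5p libraries were apart from all 4 controls. The rise was 2.72-fold over parent (log2 fold change 1.27 ± 0.07 SE, limma adjusted p = 1.88e-05) and 2.37-fold over NC (log2 fold change 1.11, adjusted p = 3.81e-05). Summed, the 3 receptors went from 25.3 and 26.3 FPKM in parent and 32.0 and 31.9 in NC to 92.0 and 84.3 with miR-4711-5p. All 3 kept these calls whichever of the 6 libraries was left out.

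TLR3 (chr4:186990065-187009227, plus strand), the endosomal receptor, had the lowest level of the 10 genes in every group. It was at 1.95 and 2.45 FPKM in parent, 2.20 and 2.77 in NC, and 4.02 and 3.70 under miR-4711-5p. The parent and NC ranges overlapped, and both miR-4711-5p values lay above them. TLR3 rose 1.76-fold over parent (log2 fold change 0.61 ± 0.12 SE, limma adjusted p = 0.00645) and 1.55-fold over NC (log2 fold change 0.48, adjusted p = 0.0175). The call against NC was lost with no filter on low values (adjusted p = 0.0540) and without NC library 1 (0.0873), miR-4711-5p library 1 (0.102) or miR-4711-5p library 2 (0.0624).

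EIF2AK2 (chr2:37326353-37384665, minus strand) encodes PKR, which phosphorylates the translation factor eIF2α. It was at 15.3 and 14.1 FPKM in parent, 16.5 and 16.2 in NC, and 36.7 and 33.8 under miR-4711-5p. The groups did not overlap. EIF2AK2 rose 2.40-fold over parent (log2 fold change 1.21 ± 0.06 SE, limma adjusted p = 1.55e-05) and 2.15-fold over NC (log2 fold change 1.06, adjusted p = 3.09e-05). As for DDX58, the annotated 3′ UTR holds seed sites, here 2 of them. Action of the microRNA at these sites was not tested.

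ADAR (chr1:154554171-154600489, minus strand) had the highest level of the 10 genes in all 3 groups. The gene has a longer, interferon-inducible isoform and a shorter, constitutive one, and the gene-level values do not separate them. ADAR was at 55.0 and 54.6 FPKM in parent, 55.2 and 55.8 in NC, and 91.4 and 87.6 under miR-4711-5p. Parent and NC were almost level, and the miR-4711-5p libraries lay above them. The rise was 1.63-fold over parent (log2 fold change 0.70 ± 0.04 SE, limma adjusted p = 3.19e-05) and 1.61-fold over NC (log2 fold change 0.68, adjusted p = 4.10e-05). ADAR and EIF2AK2 kept both calls whichever library was left out.

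The adaptors had smaller log2 fold changes than the receptors. MAVS (chr20:3827446-3856770, plus strand), through which RIG-I and MDA5 signal, was at 19.1 and 18.7 FPKM in parent, 21.9 and 21.4 in NC, and 17.4 and 18.3 under miR-4711-5p. The miR-4711-5p libraries were the lowest and the NC libraries the highest. MAVS fell to 0.826 of NC (log2 fold change -0.26, limma adjusted p = 0.00649), a call lost without miR-4711-5p library 1 (adjusted p = 0.0559). Against parent the log2 fold change was -0.08 (95% interval -0.20 to 0.05, limma adjusted p = 0.271), and it turned to 0.057 when each library was divided by its sum.

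TICAM1 (chr19:4815944-4831724, minus strand), the adaptor of TLR3, was at 8.78 and 8.85 FPKM in parent, 9.15 and 10.1 in NC, and 11.6 and 10.6 under miR-4711-5p. The groups did not overlap, but the step from NC to miR-4711-5p was no wider than the distance between the NC libraries. TICAM1 rose 1.26-fold over parent (log2 fold change 0.30 ± 0.07 SE, limma adjusted p = 0.0132). This call was lost without parent library 1 (adjusted p = 0.0602), parent library 2 (0.0533) or miR-4711-5p library 1 (0.0974). Against NC the ratio was 1.15 (log2 fold change 0.19, 95% interval 0.02 to 0.36, limma adjusted p = 0.0746).

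Both kinases differed less than the receptors. TBK1 (chr12:64845870-64895894, plus strand), the main kinase of IRF3, was at 18.4 and 20.8 FPKM in parent, 22.4 and 22.3 in NC, and 29.1 and 27.7 under miR-4711-5p. The miR-4711-5p libraries were above all controls. TBK1 rose 1.45-fold over parent (log2 fold change 0.52 ± 0.07 SE, limma adjusted p = 9.43e-04) and 1.27-fold over NC (log2 fold change 0.33, adjusted p = 0.00706), the latter call being lost without miR-4711-5p library 1 (adjusted p = 0.0569).

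IKBKE (chr1:206643819-206670222, plus strand) encodes the related kinase IKKε. It was at 8.80 and 9.06 FPKM in parent, 9.74 and 10.5 in NC, and 11.5 and 11.8 under miR-4711-5p. The 3 groups did not overlap. IKBKE rose 1.31-fold over parent (log2 fold change 0.35 ± 0.06 SE, limma adjusted p = 0.00323) and 1.16-fold over NC (log2 fold change 0.19, adjusted p = 0.0392). The call against NC was lost in each of the 6 fits without 1 library (adjusted p from 0.0501 to 0.175), with no filter on low values (0.0673) and with the 2 groups alone in the fit (0.0558). Without miR-4711-5p library 1, the number of the 10 genes called against NC was 5 in place of 9.

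**Figure D2:**
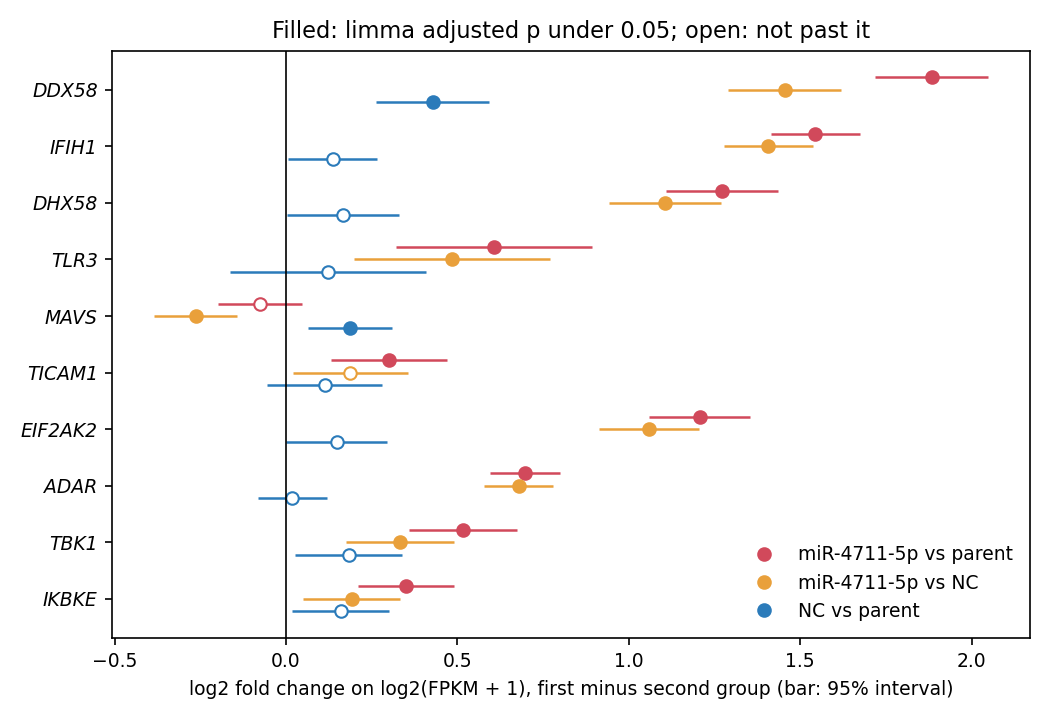
Log2 fold change of each of the 10 genes on the log2(FPKM + 1) scale, first minus second group, with bars for the 95% interval of the limma fit, red for miR-4711-5p against parent, orange for miR-4711-5p against NC and blue for NC against parent. Filled points passed the adjusted p of 0.05, and in both miR-4711-5p comparisons, but not for NC against parent, the receptors, EIF2AK2 and ADAR lie to the right of the adaptors and kinases, with MAVS against NC at -0.26.

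The control itself differed from parent cells. Between NC and parent, 2 of the 10 genes were called higher and none lower, where 27.2% of all tested genes were called, 12.1% higher and 15.1% lower. DDX58 rose 1.37-fold (log2 fold change 0.43, limma adjusted p = 0.00635) and kept this call whichever library was left out (highest adjusted p = 0.0437). The 95% interval of this log2 difference was 0.26 to 0.59, and that of miR-4711-5p against NC, which uses the same NC libraries, was 1.29 to 1.62. MAVS rose 1.15-fold (log2 fold change 0.19, limma adjusted p = 0.0361), and each fit without 1 library lost that call (adjusted p from 0.0605 to 0.136).

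The other 8 genes had log2 differences from 0.02 (ADAR, limma adjusted p = 0.773) to 0.18 (TBK1, adjusted p = 0.0831) between NC and parent. In 9 of the 10 genes both NC libraries were above both parent libraries, where 31.3% of tested genes showed this, and TLR3 was the exception. The count of 2 depends on the scale of the libraries. After each library was divided by its sum, 7 of the 10 genes were called higher with NC, namely DDX58, MAVS, IFIH1, DHX58, EIF2AK2, TBK1 and IKBKE. Of all 12040 tested genes, 2327 were then called higher and 1000 lower, in place of 1456 and 1823.

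The order of the levels differed with the microRNA. In parent cells it was ADAR, TBK1, MAVS, EIF2AK2, DDX58, IFIH1, IKBKE, TICAM1, DHX58 and TLR3, where the libraries of TBK1 and MAVS overlapped and so did those of IKBKE and TICAM1. With miR-4711-5p it was ADAR, DDX58, EIF2AK2, IFIH1, TBK1, MAVS, DHX58, IKBKE, TICAM1 and TLR3, with overlap between IFIH1 and TBK1 and between IKBKE and TICAM1. In FPKM, DDX58 was thus below MAVS and TBK1 in parent and above both with miR-4711-5p. In NC the order was that of parent, with overlap between EIF2AK2 and DDX58 and among IFIH1, IKBKE and TICAM1.

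Ratios of 2 genes within a library do not depend on how the libraries are scaled. The FPKM ratio of DDX58 to its adaptor MAVS was 0.590 and 0.663 in parent, 0.750 and 0.752 in NC, and 2.81 and 2.39 under miR-4711-5p. The FPKM of DDX58 was thus below that of MAVS in every control library and above it in both miR-4711-5p libraries. The size of such a ratio depends on the exon lengths used, which are not given. The mean ratio of IFIH1 to MAVS was 0.494, 0.479 and 1.63 in the same order of groups. The mean ratio of DHX58 to DDX58 was 0.397 in parent, 0.330 in NC and 0.274 under miR-4711-5p, without overlap of the groups, and that of ADAR to IFIH1 was 5.88, 5.37 and 3.07.

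The mean ratio of the kinases, TBK1 to IKBKE, was 2.19, 2.21 and 2.44, with overlap between parent and NC. TLR3 to its adaptor TICAM1 was 0.249, 0.257 and 0.348. The adaptors and kinases together summed to 55.0 and 57.4 FPKM in parent, 63.1 and 64.2 in NC, and 69.6 and 68.4 under miR-4711-5p. The 3 groups did not overlap in this sum.

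**Figure D3:**
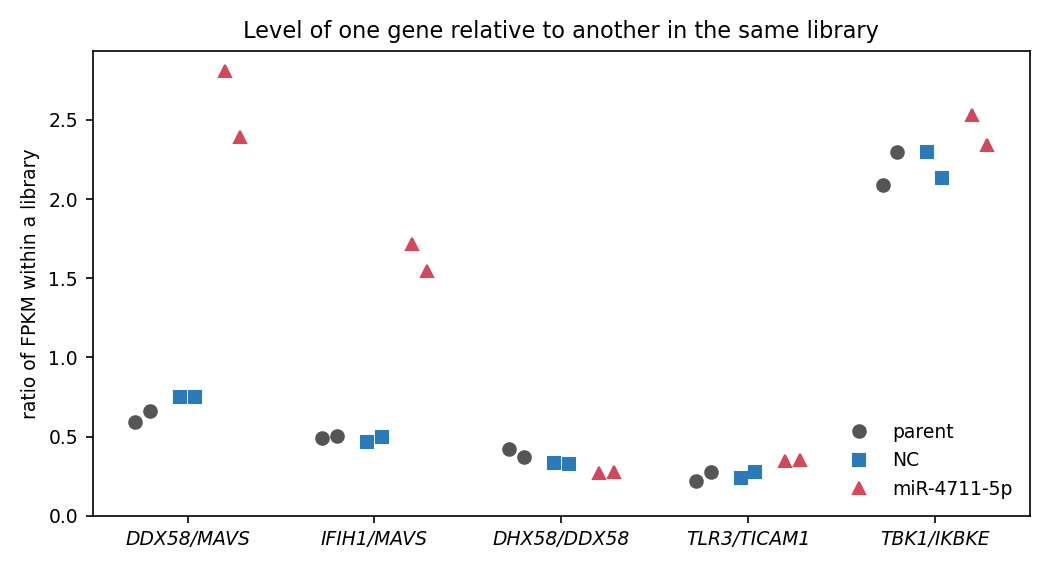
Ratio of the FPKM of 2 genes within the same library, on a linear axis from 0, with grey circles for parent, blue squares for NC and red triangles for miR-4711-5p. DDX58 to MAVS and IFIH1 to MAVS are above 1 only in the red triangles, while DHX58 to DDX58 is lowest there, at a mean of 0.274.

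Likeness to DDX58 was measured as the Euclidean distance of log2(FPKM + 1) over the 6 libraries, each gene centred on its parent mean. The nearest 5 genes outside the 10 were EPSTI1 (distance 0.253), IFI27 (0.306), IFIT3 (0.315), CD274 (0.317) and CYR61 (0.335). IFIT3, an interferon-induced gene, was at 31.3 and 29.3 FPKM in parent, 34.7 and 39.1 in NC, and 128 and 112 under miR-4711-5p. CD274, which encodes the checkpoint ligand PD-L1, was at 5.37 and 5.55, then 9.29 and 8.75, then 22.3 and 21.6 FPKM. Of the 10 genes, IFIH1 ranked 34, DHX58 ranked 77 and EIF2AK2 ranked 95 by this distance among tested genes. ADAR was at rank 367, TLR3 at 459, TBK1 at 591 and IKBKE at 1179. The adaptors were farthest from DDX58, with TICAM1 at rank 1539 and MAVS at rank 6156.

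The genes around the sensors were taken from 10 lists of 95 genes, of which 82 were tested. With miR-4711-5p, 30 were called higher and 16 lower against parent, and 30 higher and 14 lower against NC, which are to be read against the 18.4% to 24.7% of all tested genes called in one direction. The median log2 fold change of the 82 genes was 0.09 against parent and 0.08 against NC. Against NC, 18.4% of all tested genes were called higher and 21.2% lower. The counts of each list are to be read beside these shares. The genes named for each list are those with the largest log2 fold change against NC among the genes called in the same direction against both controls. After each library was divided by its sum, 26 of these 30 genes kept both calls, and G3BP1, OTUD5, DICER1 and STAU2, all of them lower, did not. In every fit without 1 library 19 of the 30 kept both calls, and the other 11 are marked where they occur.

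Of 11 activators and cofactors of RIG-I and MDA5, 4 were called higher and 1 lower against NC (5 and 0 with libraries divided by their sums). The ubiquitin ligase TRIM25, which modifies RIG-I, rose 1.35-fold over NC (limma adjusted p = 9.08e-04), the RNA-binding protein ZC3HAV1 rose 1.43-fold (adjusted p = 8.39e-04) and the helicase DDX60 rose 1.38-fold (adjusted p = 4.45e-04). For DDX60, NC was itself called above parent (1.39-fold, limma adjusted p = 0.00164). G3BP1, a stress granule protein, was at 104 and 108 FPKM in parent, 104 and 106 in NC, and 94.9 and 92.6 under miR-4711-5p. It fell to 0.895 of NC (limma adjusted p = 0.0205), a call that was lost without either NC or either miR-4711-5p library. The call of G3BP1 against parent was lost without parent library 2 or either miR-4711-5p library. A call of G3BP1 was also lost with no trend in the fit.

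Of 7 tested inhibitors of the pathway, 2 were called higher and 2 lower against NC, and 1 higher and 2 lower in each of the 6 fits without 1 library. TNFAIP3, which encodes the ubiquitin-editing enzyme A20, was at 22.0 and 22.2 FPKM in parent, 31.2 and 31.1 in NC, and 53.8 and 50.7 under miR-4711-5p. It rose 1.68-fold over NC (limma adjusted p = 5.42e-05), and NC was itself called above parent (1.41-fold, limma adjusted p = 0.00149). The deubiquitinase OTUD5 fell to 0.763 of NC (limma adjusted p = 0.00142) and to 0.840 of parent (adjusted p = 0.00889), the latter call being lost without miR-4711-5p library 1 (0.0685).

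Downstream of MAVS and TRIF, 2 of 15 tested genes were called higher and 3 lower against NC (1 and 2 without either NC or either miR-4711-5p library, 3 and 2 with libraries divided by their sums). TRAF3, the ubiquitin ligase between MAVS and TBK1, was at 14.9 and 15.1 FPKM in parent, 14.7 and 14.8 in NC, and 9.20 and 9.35 under miR-4711-5p. The controls were level and both miR-4711-5p libraries were below them. TRAF3 fell to 0.628 of NC (log2 fold change -0.62, limma adjusted p = 1.48e-04) and to 0.618 of parent (log2 fold change -0.64, adjusted p = 1.05e-04), also after each library was divided by its sum.

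The death domain adaptor FADD rose 1.32-fold over NC (limma adjusted p = 8.63e-04), where NC was called below parent (limma adjusted p = 0.0230). Over parent FADD rose 1.15-fold (limma adjusted p = 0.0171), a call lost without either parent or either miR-4711-5p library. IKBKB, a kinase of NF-κB activation, rose 1.18-fold over NC (limma adjusted p = 0.0301), which was lost without either NC or either miR-4711-5p library. The call of IKBKB against parent was lost without parent library 1 or either miR-4711-5p library. A call of IKBKB was also lost with no filter on low values. IRF3, the transcription factor that TBK1 phosphorylates, was not called, with 85.1 and 81.6 FPKM in parent, 86.0 and 88.3 in NC, and 84.4 and 86.9 under miR-4711-5p. The related factor IRF7 was at 0.228 FPKM or less in all 6 libraries and was not tested. IRF3 and IRF7 were named after their values were seen.

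Of 6 tested genes of endosomal Toll-like receptor signalling, 4 were called lower against NC and none higher, while 1 was also called higher without either parent library or with libraries divided by their sums. MYD88, the adaptor of the other endosomal receptors but not of TLR3, was at 41.7 and 41.3 FPKM in parent, 40.6 and 41.3 in NC, and 32.7 and 32.9 under miR-4711-5p. It fell to 0.801 of NC (limma adjusted p = 0.00140), and the kinase IRAK4 downstream of it fell to 0.710 of NC (adjusted p = 0.00497). The fall of IRAK4 against parent was lost without parent library 2 (adjusted p = 0.0507) or miR-4711-5p library 1 (0.0677). The receptors TLR7, TLR8 and TLR9 were at 0.0328 FPKM or less in every library and were named after their values were seen.

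Sites for the seed of miR-4711-5p were also searched for the 30 genes named from the lists. Of the 8 that were lower, 6 had a site in the longest 3′ UTR, and of the 22 that were higher, 4 had one, beside 18.4% of all tested genes. These counts are a description over genes chosen by their values. Those of TRAF3 are shown because it lies between MAVS and TBK1 and fell, and that of MYD88 because it is the adaptor of the endosomal receptors other than TLR3 and fell. The sites lie at chr14:103376860-103376866, chr14:103377739-103377745 and chr3:38183288-38183294 on GRCh37, in the order printed, and the capitals mark the site.
TRAF3 7mer-m8, base 4739 of the 3′ UTR: tcgtccaggCTGATGCtgatggtca
TRAF3 7mer-m8, base 5618 of the 3′ UTR: tttgtgtttCTGATGCtaataacta
MYD88 7mer-m8, base 511 of the 3′ UTR: tgatgcctaCTGATGCttcagtgcc

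Other systems that act on double-stranded RNA were counted in the same way. OAS1, OAS2 and OAS3 encode enzymes that bind duplex RNA and then make short oligoadenylates. All 4 genes of the OAS list, which also held OASL, were called higher against both controls. OASL rose 1.88-fold over NC (limma adjusted p = 1.86e-05) and was named after its values were seen. OAS1 was at 35.2 and 34.5 FPKM in parent, 37.7 and 40.8 in NC, and 118 and 109 under miR-4711-5p, a rise of 2.88-fold over NC (limma adjusted p = 7.26e-06). OAS2 and OAS3 rose 2.40-fold and 2.56-fold over NC (limma adjusted p = 8.35e-06 and 9.89e-06).

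Of 17 tested genes of other double-stranded RNA binding proteins, 4 were called higher and 2 lower against NC. The shares of all tested genes were 18.4% and 21.2%. The 4 became 2 without NC library 1 and 1 without either miR-4711-5p library, and 6 with libraries divided by their sums. The helicases DDX21 and DHX15 rose 1.34-fold and 1.17-fold over NC (limma adjusted p = 5.59e-04 and 0.00841). Over parent the rises were 1.14-fold and 1.10-fold (limma adjusted p = 0.0153 and 0.0494). For DDX21, NC was called below parent (limma adjusted p = 0.0133). The calls against parent failed in 3 of the 6 fits without 1 library for DDX21 and in 5 for DHX15. A call of DHX15 was also lost with a pseudocount of 0.1, no filter, median-of-ratios rescaling, 2 groups in the fit, no trend or a replicate block. The rise of DHX15 over NC was lost without either miR-4711-5p library (limma adjusted p from 0.0503 to 0.0569). DICER1, the nuclease that makes mature microRNAs, was at 14.7 and 14.6 FPKM in parent, 20.4 and 18.8 in NC, and 12.4 and 12.1 under miR-4711-5p. It fell to 0.626 of NC (limma adjusted p = 2.17e-04), while NC itself was above parent. The fall of DICER1 against parent was lost without either parent or either miR-4711-5p library (adjusted p from 0.0518 to 0.0794).

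STAU2, a transport protein of double-stranded RNA, fell to 0.763 of NC (limma adjusted p = 0.00334), and its fall against parent was lost without either parent or either miR-4711-5p library. A call of STAU2 was also lost with no filter on low values and with 2 groups in the fit. ADARB1, which encodes another editing enzyme, was not called. It was at 3.51 and 3.46 FPKM in NC and 3.92 and 3.98 under miR-4711-5p (limma adjusted p = 0.167). ZBP1, a sensor of left-handed duplexes, was at 0.0861 and 0 FPKM in parent, 0.234 and 0.112 in NC, and 2.35 and 1.43 under miR-4711-5p, and its mean was below the limit for testing. ADARB1 and ZBP1 were named after their values were seen.

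In the eIF2α branch, on which PKR acts, 3 of 9 genes were called higher and 1 lower against NC, the lower call being absent from each fit without 1 library. EIF2AK4, another eIF2α kinase, rose 1.56-fold over NC (limma adjusted p = 1.06e-04), where NC was below parent. PPP1R15A, which encodes the phosphatase subunit GADD34 that reverses the phosphorylation, was at 34.0 and 33.9 FPKM in parent, 34.1 and 30.3 in NC, and 50.6 and 50.4 under miR-4711-5p. It rose 1.57-fold over NC (limma adjusted p = 2.85e-04). The stress factor DDIT3 rose 1.22-fold over NC (limma adjusted p = 0.0138), a call lost without NC library 1 or miR-4711-5p library 1. Its call against parent was lost without parent library 2 or either miR-4711-5p library.

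Sensing of cytosolic DNA was measured for comparison, and 5 of 7 genes were called higher and 1 lower against NC. SAMHD1, a nucleotide hydrolase, was at 13.2 and 12.9 FPKM in parent, 15.1 and 14.1 in NC, and 46.2 and 42.2 under miR-4711-5p, a rise of 3.02-fold over NC (limma adjusted p = 8.48e-06). The DNA sensors AIM2 and IFI16 rose 2.41-fold and 1.35-fold over NC (limma adjusted p = 5.63e-04 and 3.45e-04). TMEM173, which encodes STING, the adaptor of this route, fell to 0.805 of NC (limma adjusted p = 0.00777), a call lost without miR-4711-5p library 1 (adjusted p = 0.0510). Both MAVS and TMEM173, the adaptors of RNA and of DNA sensing, were thus called lower than in NC. Against parent TMEM173 was also called lower (0.725 of parent, limma adjusted p = 0.00119), but MAVS was not (limma adjusted p = 0.271). For MAVS, NC was itself called above parent (limma adjusted p = 0.0361).

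STAT2 and IRF9 are transcription factors of interferon signalling, and both were called higher with miR-4711-5p against parent and against NC. STAT2 was at 15.5 and 15.7 FPKM in parent, 18.3 and 18.4 in NC, and 38.2 and 34.4 under miR-4711-5p. The 3 groups did not overlap. STAT2 and IRF9 rose 1.98-fold and 2.07-fold over NC (limma adjusted p = 4.26e-05 and 1.64e-05). For both, NC was itself called above parent (1.17-fold and 1.42-fold, limma adjusted p = 0.0372 and 0.00161).

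Of the products of the pathway, 4 of 9 were tested and all 4 were called higher against both controls. CXCL10, a chemokine that IRF3 and interferon induce, was at 9.96 and 10.3 FPKM in parent, 22.3 and 21.9 in NC, and 74.0 and 62.2 under miR-4711-5p. It rose 3.08-fold over NC (limma adjusted p = 1.69e-05), and NC was itself called above parent (2.18-fold, limma adjusted p = 5.68e-04). The chemokine CCL5 rose 1.66-fold over NC (limma adjusted p = 0.00409). The cytokine IL6 was at 0.0612 and 0.280 FPKM in parent, 0.571 and 0.714 in NC, and 6.83 and 7.20 under miR-4711-5p (log2 fold change against NC 2.29, limma adjusted p = 2.83e-05). IL6 passed the filter on low values only through its miR-4711-5p libraries, so its call is not independent of that rise.

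The interferon mRNAs of the list, IFNA1, IFNB1, IFNL1, IFNL2 and IFNL3, stayed below 1 FPKM, and other interferon genes were not examined. IFNB1 was listed at 0 in all 4 control libraries and at 0.613 and 0.234 FPKM with miR-4711-5p. IFNL1 was at 0.0919 and 0.421 in parent, 0 and 0.214 in NC, and 0.342 and 0.609 under miR-4711-5p, which overlapped with parent and lay above NC. IFNL2 and IFNL3 were listed at 0 in the 4 control libraries and in miR-4711-5p library 2, and at 0.210 and 0.569 FPKM in miR-4711-5p library 1. IFNA1 was listed at 0 throughout. These genes were not tested, the depth behind such values is unknown, and they were named after their values were seen.

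**Figure D4:**
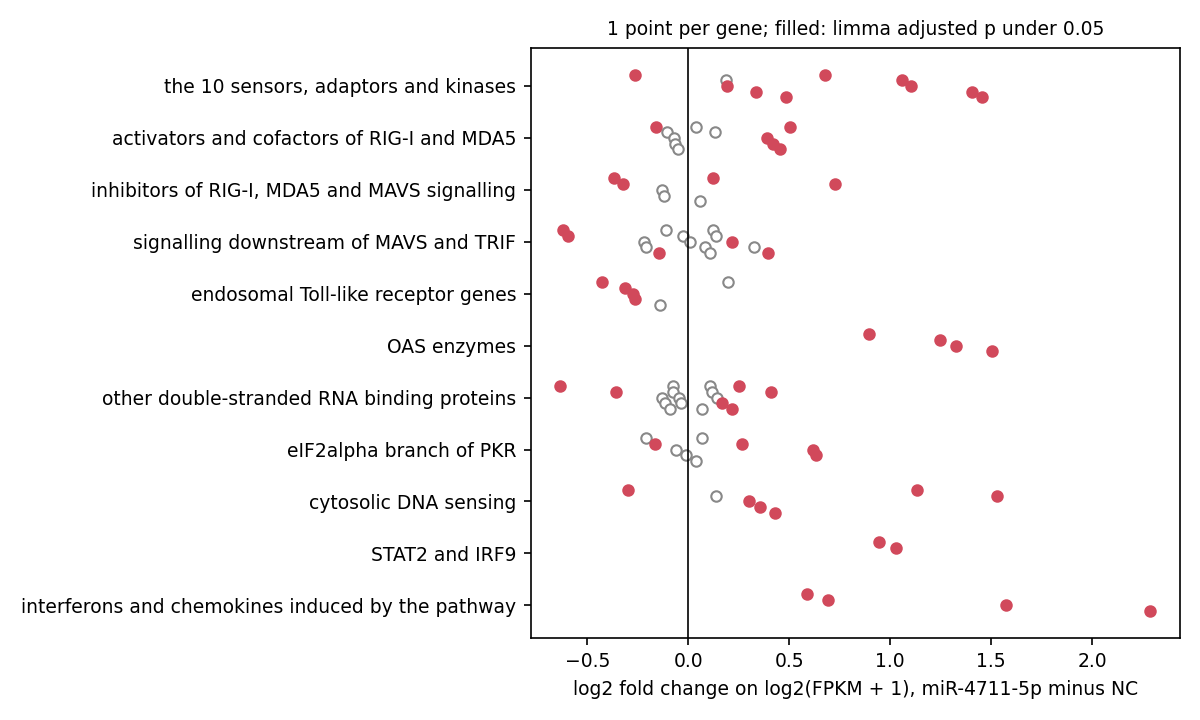
Log2 fold change of miR-4711-5p against NC on the log2(FPKM + 1) scale, 1 point for each tested gene, with the 10 sensors, adaptors and kinases in the top row and the 10 lists below. Filled points passed the adjusted p of 0.05, and the OAS genes, STAT2, IRF9 and the induced cytokines lie to the right of 0. In the row of endosomal Toll-like receptor signalling 4 genes are filled on the left, none of which encodes a Toll-like receptor.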

How the data were processed

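The authors prepared stranded, polyadenylated RNA libraries, sequenced them single-end and mapped the reads to hg19. The notes in the labels list TopHat2 2.1.1, Bowtie2 2.3.5.1, SAMtools 1.2 and Cufflinks 2.2.1, while the methods of the study name other versions of the mapping tools. The deposited values are FPKM per gene symbol, normalized by the authors for exon length and library size. Gene annotation, strand option and normalization option are not given in the sources used here, so reads of overlapping genes may be shared. The depth in reads is unknown.

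Tables and figures were made in Python 3.11.15 (numpy 2.4.6, pandas 2.3.3 and matplotlib 3.10.9), and tests in R 4.3.3 with limma 3.58.1. Genes averaging 1 FPKM or more over 6 libraries were fitted on log2(FPKM + 1) with limma (lmFit, eBayes with trend), all 3 groups in the same fit, with 3 residual and 4.15 prior degrees of freedom. Tests were two-sided with Benjamini-Hochberg adjustment over 12040 genes at 0.05. No count model was used. Fold changes are ratios of mean FPKM, and log2 fold changes come from the fit. An exact permutation test of 2 against 2 libraries cannot go below 0.333. The fit was checked on simulated data with independent noise and few changed genes. That check cannot show how calls behave where many genes shift or library sums differ.

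The members and lists were chosen with earlier results of these data known. All 10 members were named, and from each list up to 3 genes higher and up to 2 lower against NC, past the threshold in the same direction against NC and parent. A further 2 genes were left out of the lists and their counts and are not reported here. Genes named outside this rule are marked where they occur. Alternatives were a pseudocount of 0.1, no filter, rescaled libraries, 2 groups in the fit, no trend, a replicate block, an added 1.5-fold change and leaving out each library. Equal FPKM sums were added after seeing the data.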

Additional observations from a re-analysis of the deposited data

How the results depend on the processing

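Over the alternatives, the 10 genes gave 130 values of miR-4711-5p against parent, of which 126 kept direction and call. Against NC 115 of 130 did, and for NC against parent 114 of 130. These counts include settings that could move little. The median-of-ratios factors were 1.01 in every library, and leaving out a library of the group outside a comparison leaves its fold changes as they are and changes the estimate of the spread and the set of genes tested. Of the 10 genes, 8 to 9 stayed called against parent and 5 to 8 against NC when 1 library was left out, the 5 being without miR-4711-5p library 1, where the main count was 9. NC against parent called 2 genes, and 1 to 2 when 1 library was left out. It called 1 with no filter, with 2 groups in the fit and with no trend, 0 with an added 1.5-fold change and 7 with equal FPKM sums. An added 1.5-fold change left 6 genes called against parent and 6 against NC. MAVS against parent turned from -0.08 to 0.057 with equal FPKM sums (limma adjusted p = 0.382), which also called all 10 genes against NC.

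Over all tested genes, 5230, 4763 and 3279 were called in the 3 comparisons. Leaving out 1 library gave 3246 to 5185, 2887 to 4679 and 1457 to 2385, and an added 1.5-fold change gave 1486, 1293 and 499. NC against parent called 2165 with no filter. Equal FPKM sums changed the split from 2255 higher and 2975 lower to 4010 and 1776 against parent, from 2214 and 2549 to 2923 and 2083 against NC, and from 1456 and 1823 to 2327 and 1000 for NC against parent. The causes of these changes were not tested. A fit without 1 library assumes that the lone library of its group varies like the other groups.

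Deviations of same-numbered libraries correlated at 0.06, 0.00 and -0.01, so they showed no shared shift. The labels do not say whether same-numbered libraries were prepared together, and these values cannot show it. With the replicate block, 9, 9 and 1 of the 10 genes and 4983, 4564 and 2864 of all genes were called. The block ended the call of MAVS for NC against parent (limma adjusted p = 0.0575) and changed no other call of the 10 genes.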
